A study of Mus musculus with 12 samples.

Results

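The 9 genes described here encode parts of the apoptosis and necroptosis machinery: Ripk1, Ripk3, Mlkl, Casp8, Fas, Tnfrsf10b, Bax, Bcl2l11 and Bbc3. They were picked by gene symbol from a table of 16035 genes measured by RNA sequencing in mouse liver, and all 9 were listed there. The livers came from WT (wild-type) C57BL/6 mice given a diet named HFCF, which the labels do not spell out, or normal chow, in a series on experimental nonalcoholic steatohepatitis. The 4 groups were HFCF for 1 month, chow for 1 month, HFCF for 3 months and chow for 3 months, with 3 biological replicates each and 12 libraries in all. Ages were 3 months after the 1 month feeding and 6 months after the 3 months feeding, so length of feeding cannot be told apart from age. The labels give no transgene or other allele for any group, and no sex.

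Apoptosis can start at the cell surface, where ligand-bound death receptors such as Fas recruit the adaptor Fadd and the initiator caspase Casp8, or at mitochondria, where BH3-only proteins act on Bax and Bak1 to release cytochrome c. When Casp8 is not active, the kinases Ripk1 and Ripk3 can assemble a complex that phosphorylates Mlkl, and Mlkl then breaches the plasma membrane in the lytic death called necroptosis. Hepatocytes are known for their sensitivity to Fas ligation, and Ripk3 is known to be scarce in healthy hepatocytes and present in liver macrophages.

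The libraries held 13733485 to 20277572 counts, and 14725 genes passed the filter on low counts. Of the 9 members 8 passed it, and Tnfrsf10b, with 0 to 15 counts a library, did not. Levels are CPM, read counts scaled to a common library size, given as mean ± SD over 3 libraries. Changes are log2 fold changes ± SE of HFCF over chow from edgeR's quasi-likelihood test, with p adjusted over all genes tested and a threshold of 0.05. HFCF at 3 months replicate 3 stood apart from its group on the first principal component, at 29.3 against 60.7 and 63.8, and chow at 1 month replicate 1 on the second, at 36.8 against 0.00513 and 6.43. Leaving out these 2 libraries together is given below for Casp8 at 1 month and for some other pathway genes whose call against chow it changed. Pathway genes whose call it changed between the months are not named. All 10 hepatocyte markers were listed, with summed levels of 59853 to 115503 CPM, and none of them was at 0 in any group, so the labelled tissue is borne out by these markers.

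After 3 months of HFCF 4 of the 8 members tested rose, namely Ripk3, Mlkl, Casp8 and Fas, and none fell, while 19% of all genes passed in either direction, 11.5% higher and 7.5% lower. After 1 month Casp8 rose and no member fell, while 2.04% of all genes passed in either direction, 1.04% higher and 1.01% lower. The HFCF libraries lay above all chow libraries for 5 of the 8 members at 3 months, against 19.3% of all genes, and for 4 at 1 month, against 10.1% of all genes. No member tested lay below chow in that way, against 17.5% of all genes at 3 months and 10.5% at 1 month. Bax, Bcl2l11 and Bbc3 did not pass against chow at either month. The median change over the 8 members was 0.291 at 3 months and 0.325 at 1 month, against medians near 0 over all genes tested, -0.00423 and -0.00455.

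The DNA just before the start sites of the 4 members that rose at 3 months is shown because these genes were all higher in the same livers. Each line holds the 250 bases upstream of the start site in RefSeq (GRCm38.p6), read 5′ to 3′ on the gene's strand. The windows lie at chr14:55788858-55789107 (minus strand) for Ripk3, chr8:111338206-111338455 (minus strand) for Mlkl, chr1:58802252-58802501 (plus strand) for Casp8 and chr19:34290409-34290658 (plus strand) for Fas. Capitals mark matches, on either strand, to the SP1 core GGGCGG, the interferon regulatory factor core AANNGAAA or the interferon-gamma activated site TTCNNNGAA.
Ripk3: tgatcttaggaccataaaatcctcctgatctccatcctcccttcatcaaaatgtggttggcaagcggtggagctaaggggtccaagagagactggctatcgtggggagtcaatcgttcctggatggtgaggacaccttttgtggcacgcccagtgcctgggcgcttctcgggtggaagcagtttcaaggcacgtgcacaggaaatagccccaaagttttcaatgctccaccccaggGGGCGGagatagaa
Mlkl: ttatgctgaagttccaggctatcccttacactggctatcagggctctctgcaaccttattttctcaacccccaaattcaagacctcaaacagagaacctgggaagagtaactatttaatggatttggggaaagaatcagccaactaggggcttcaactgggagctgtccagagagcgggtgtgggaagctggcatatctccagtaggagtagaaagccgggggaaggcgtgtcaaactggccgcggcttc
Casp8: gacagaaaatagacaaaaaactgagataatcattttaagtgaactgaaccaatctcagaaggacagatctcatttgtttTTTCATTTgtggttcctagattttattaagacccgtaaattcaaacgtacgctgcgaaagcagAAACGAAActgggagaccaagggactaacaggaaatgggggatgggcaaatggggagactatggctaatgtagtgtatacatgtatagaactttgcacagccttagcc
Fas: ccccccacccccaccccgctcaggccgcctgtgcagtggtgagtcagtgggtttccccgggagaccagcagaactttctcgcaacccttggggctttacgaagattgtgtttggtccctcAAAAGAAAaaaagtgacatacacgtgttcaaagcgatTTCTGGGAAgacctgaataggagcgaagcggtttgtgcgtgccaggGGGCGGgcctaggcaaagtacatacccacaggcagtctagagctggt

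The Ripk3 window held an SP1 core with its first base at position -14 from the start site. The last 8 bases of that window lie in an annotated exon. The Casp8 window held the interferon regulatory factor core at -171 on the minus strand and at -108 on the plus strand. It belongs to a start site inside the Casp8 gene as the deposited table delimits it. The Fas window held the interferon regulatory factor core at -130, the palindromic activated site at -93 and an SP1 core at -47. The Mlkl window held none of the 7 motifs searched. Members that did not pass against chow held some of them too. Windows of Ripk1, Bax, Bcl2l11 and Bbc3 held SP1 cores, and a Ripk1 window held the activated site. A Bax window held the p53 half-site and a Bbc3 window the kappaB site. No window of these members held the interferon regulatory factor core. Of 32851 mouse promoter windows of this length, 32.7% held the SP1 core, 21.3% the interferon regulatory factor core and 7.02% the activated site. The other 4 motifs were the interferon-stimulated response element (2.98% of windows), the TATA box TATAAA (12.4%), the kappaB site (3.9%) and the p53 half-site (7.13%). A response element can contain the regulatory factor core, and the motifs were chosen after the sequences had been seen. Of the 9 members 8 had a RefSeq promoter entry, and Tnfrsf10b was the other one.

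Per kilobase of gene, Casp8 was the most abundant member, at a mean of 11.7 CPM per kb over the 12 libraries. Fas followed at 9.50, Bax at 7.96 and Ripk1 at 6.71 CPM per kb. Mlkl stood at 2.51, Bbc3 at 1.93 and Bcl2l11 at 1.28 CPM per kb. Ripk3 was low, at 0.775 CPM per kb, and Tnfrsf10b was close to undetected, at 0.0629 CPM per kb. Among all genes listed these levels ranged from percentile 79.7 for Casp8 to percentile 24.5 for Ripk3 and 1.88 for Tnfrsf10b. Counts behind these levels were 361 to 863 a library for Casp8, 56 to 189 for Mlkl and 10 to 66 for Ripk3.

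**Figure D1:**
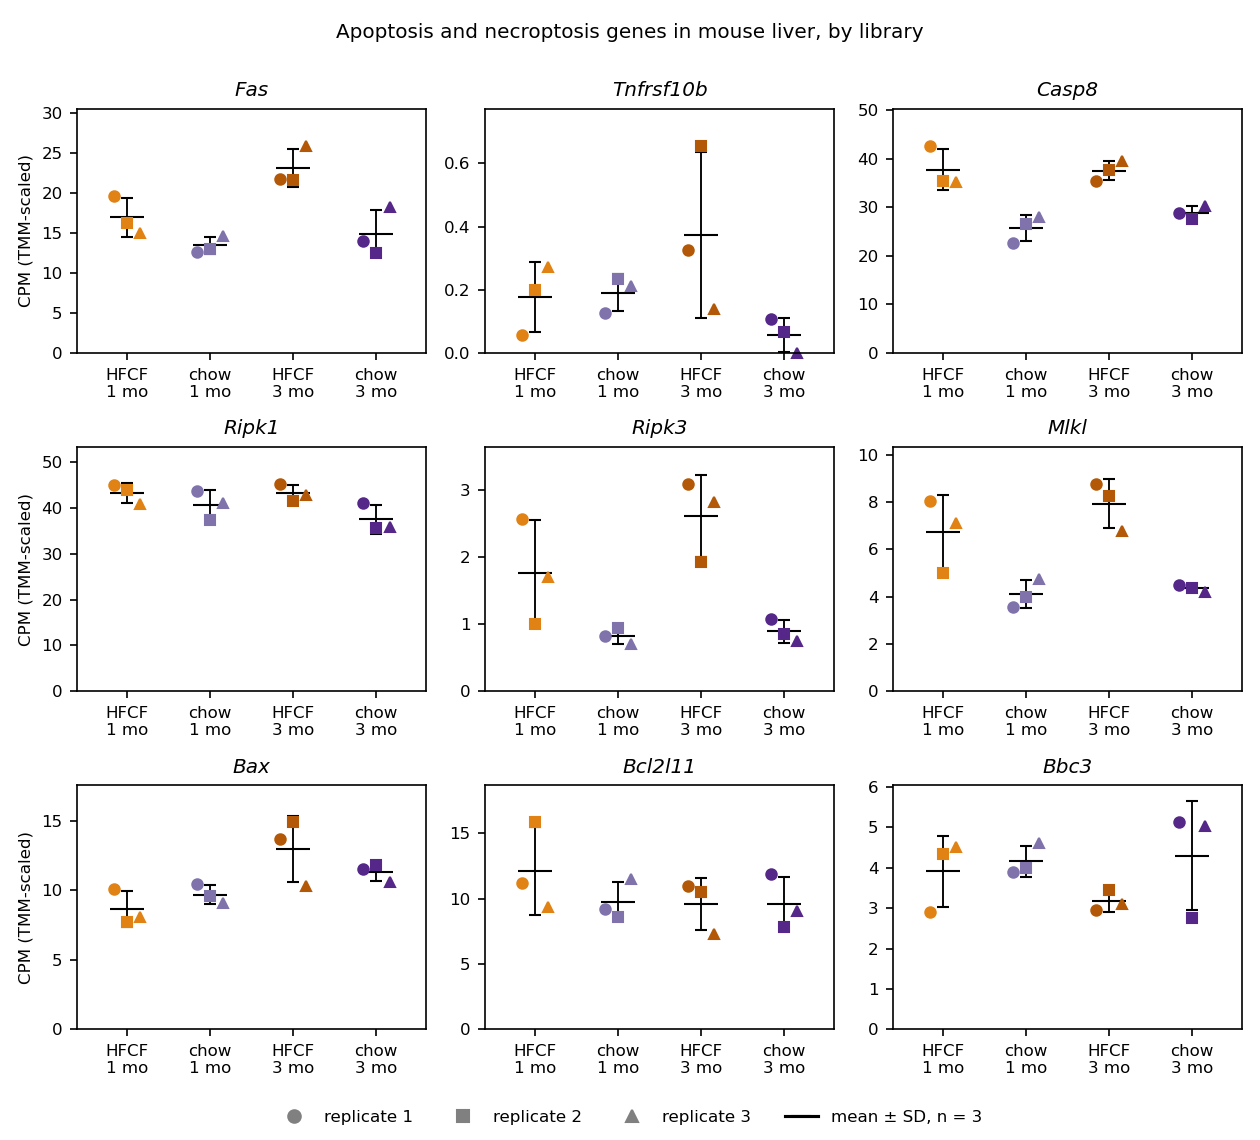
Level of each of the 9 members in CPM (vertical axes, from 0) in the 12 libraries, with HFCF left of chow at each month, symbols for replicates and bars for mean ± SD (n = 3). At 3 months the HFCF libraries lie above the chow libraries without overlap for Fas, Casp8, Ripk1, Ripk3 and Mlkl, and for Tnfrsf10b at counts of 15 or fewer.

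Ripk3 (ENSMUSG00000022221, mm10 chromosome 14, 55784996 to 55788857, minus strand) encodes the kinase that commits cells to necroptosis. Its level at 3 months was 3.09, 1.92 and 2.83 CPM in the HFCF libraries, against 1.08, 0.850 and 0.750 CPM in the chow libraries. All 3 HFCF libraries were above all 3 chow libraries, and the means were 2.61 ± 0.61 CPM in HFCF and 0.89 ± 0.17 CPM in chow (SD, n = 3 each). The change was 1.52 ± 0.34 (edgeR adjusted p = 0.00773). The call held without each library of the 2 groups in turn, with edgeR adjusted p up to 0.0386.

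After 1 month Ripk3 had 2.57, 1.00 and 1.71 CPM in the HFCF libraries, against 0.816, 0.939 and 0.708 CPM in the chow libraries. The groups did not overlap, but HFCF replicate 2 lay only just above the highest chow library. The change of 1.10 ± 0.35 did not pass (edgeR adjusted p = 0.135). Without HFCF replicate 2 it was 1.37 with an edgeR adjusted p of 0.0497, and without HFCF replicate 1 it was 0.71 with 0.484. Over the 4 groups Ripk3 ran from HFCF at 3 months through HFCF at 1 month and chow at 3 months to chow at 1 month, and each neighbouring pair overlapped.

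Mlkl (ENSMUSG00000012519, chromosome 8, 111311797 to 111338177, minus strand) encodes the membrane-breaching effector that Ripk3 phosphorylates. After 3 months its level was 8.75, 8.25 and 6.76 CPM in the HFCF libraries, against 4.47, 4.38 and 4.20 CPM in the chow libraries. The chow libraries were close together and every HFCF library lay above them, with means of 7.92 ± 1.03 CPM in HFCF and 4.35 ± 0.14 CPM in chow (SD, n = 3 each). The change was 0.87 ± 0.18 (edgeR adjusted p = 0.00635), and the adjusted p stayed at or below 0.0323 without each library in turn. A processed pseudogene, Gm45712, lies on the opposite strand within the gene, and the strand counted is not given in the sources used here.

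At 1 month Mlkl had 8.05, 5.01 and 7.10 CPM in the HFCF libraries, against 3.58, 3.99 and 4.75 CPM in the chow libraries. As for Ripk3, HFCF replicate 2 was the lowest of its group and stood just above the highest chow library. The change of 0.72 ± 0.19 missed the threshold (edgeR adjusted p = 0.0704). It passed without HFCF replicate 2 (0.89, edgeR adjusted p = 0.0249) and with the DESeq2 Wald test (0.72, adjusted p = 0.0279). In the order of groups the 2 HFCF groups overlapped each other, both lay clear of the chow groups, and the chow groups overlapped.

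Ripk1 (ENSMUSG00000021408, chromosome 13, 34002363 to 34035170, plus strand) encodes the kinase and scaffold that serves survival signalling, apoptosis and necroptosis. It varied little, from 35.6 to 45.2 CPM over the 12 libraries. At 3 months it had 45.2, 41.5 and 42.9 CPM in the HFCF libraries, against 41.2, 35.6 and 35.8 CPM in the chow libraries. The groups were just separate, and the change of 0.20 ± 0.09 did not pass (edgeR adjusted p = 0.133). With total counts as the only scaling it was 0.33 and passed (adjusted p = 0.0287), but this scaling also moved the median change of all genes to 0.127. At 1 month the change was 0.09 ± 0.09 (edgeR adjusted p = 0.673), with 45.1, 44.0 and 40.9 CPM in HFCF libraries and 43.7, 37.4 and 41.0 CPM in chow libraries, which overlapped. Ripk1 overlaps Serpinb6a and Gm17083 on the opposite strand and Gm17084 on its own, so its counts are less certain.

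Casp8 (ENSMUSG00000026029, chromosome 1, 58795374 to 58847503, plus strand) encodes the initiator caspase of the receptor route, which also cleaves Ripk1 and Ripk3. It was the member called at both months. At 1 month it had 42.6, 35.5 and 35.3 CPM in the HFCF libraries, against 22.7, 26.5 and 28.0 CPM in the chow libraries. The groups were well apart, and the change was 0.56 ± 0.10 (edgeR adjusted p = 0.0176). That call was lost without chow replicate 1 (0.47, adjusted p = 0.081), without HFCF replicate 1 (0.46, 0.0843), without both libraries that stood apart (0.47, 0.0639) and when only the 2 groups were fitted (0.56, 0.0701).

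At 3 months Casp8 had 35.5, 37.7 and 39.5 CPM in the HFCF libraries, against 28.8, 27.5 and 30.4 CPM in the chow libraries. Again all HFCF libraries were higher, with a change of 0.38 ± 0.10 (edgeR adjusted p = 0.0218). Here the call was lost without chow replicate 1 (0.37, edgeR adjusted p = 0.0543), chow replicate 2 (0.33, 0.104) or HFCF replicate 2 (0.38, 0.074). The 2 HFCF groups overlapped, as did the 2 chow groups, and a gap separated the diets. The annotation places Gm37760 on the same strand within Casp8.

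Fas (ENSMUSG00000024778, chromosome 19, 34290659 to 34327770, plus strand) encodes the death receptor for Fas ligand. Fas at 3 months had 21.8, 21.6 and 25.9 CPM in the HFCF libraries, against 13.96, 12.6 and 18.3 CPM in the chow libraries. Chow replicate 3 was the highest of its group and still below all HFCF libraries. The change was 0.63 ± 0.14 (edgeR adjusted p = 0.00908), and it lost the call without chow replicate 2 (0.51, adjusted p = 0.0581). Fas at 1 month had 19.6, 16.3 and 14.9 CPM in HFCF libraries and 12.6, 13.0 and 14.7 CPM in chow libraries, narrowly apart, and the change of 0.34 ± 0.15 did not pass (edgeR adjusted p = 0.268). In the order of the 4 groups HFCF at 3 months lay clear of HFCF at 1 month, and the other neighbours overlapped. A small RNA gene, Gm27818, lies within Fas on the same strand.

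Tnfrsf10b (ENSMUSG00000022074, chromosome 14, 69767472 to 69784403, plus strand) encodes the mouse receptor for the death ligand TRAIL. At 3 months it had 7, 15 and 2 counts in the HFCF libraries, against 2, 1 and 0 counts in the chow libraries. At 1 month it had 1, 3 and 4 counts in HFCF libraries and 2, 4 and 3 counts in chow libraries. In CPM the groups were separate at 3 months, at 0.138 to 0.655 in HFCF against 0 to 0.108 in chow, and overlapped at 1 month. With no filter on low counts the 3 month comparison had an edgeR adjusted p of 0.0497 and the 1 month comparison 0.953. A library with 0 counts may still hold this RNA below what the depth detects.

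Bax (ENSMUSG00000003873, chromosome 7, 45461695 to 45466898, minus strand) encodes the pore-forming effector of the mitochondrial route. Bax at 3 months had 13.7, 14.9 and 10.3 CPM in the HFCF libraries, against 11.5, 11.8 and 10.6 CPM in the chow libraries. HFCF replicate 3, which stood apart, was the lowest of all 6, and the change of 0.20 ± 0.15 did not pass (edgeR adjusted p = 0.351). At 1 month it had 10.1, 7.75 and 8.12 CPM in HFCF libraries and 10.4, 9.56 and 9.07 CPM in chow libraries, a change of -0.16 ± 0.15 (edgeR adjusted p = 0.659). The interval of the change ran from -0.11 to 0.52 at 3 months and from -0.48 to 0.17 at 1 month (95%). A protein-coding gene, Gm45808, overlaps Bax on the same strand, so its counts are less certain.

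Bcl2l11 (ENSMUSG00000027381, chromosome 2, 128126038 to 128162547, plus strand) encodes Bim, a BH3-only activator. At 3 months the levels were 10.9, 10.5 and 7.31 CPM in the HFCF libraries, against 11.9, 7.85 and 9.07 CPM in the chow libraries. The group means were almost equal, and the change of 0.00 ± 0.22 had an interval of -0.47 to 0.47 (edgeR adjusted p = 0.997). Bcl2l11 at 1 month had 11.2, 15.8 and 9.35 CPM in HFCF libraries and 9.23, 8.63 and 11.5 CPM in chow libraries (0.31 ± 0.22, edgeR adjusted p = 0.519). HFCF replicate 2, the lowest of its group for Ripk3 and Mlkl, was the highest for Bcl2l11.

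Bbc3 (ENSMUSG00000002083, chromosome 7, 16309616 to 16318205, plus strand) encodes Puma, a BH3-only protein and classical p53 target. At 3 months it had 2.95, 3.45 and 3.10 CPM in the HFCF libraries, against 5.12, 2.75 and 5.02 CPM in the chow libraries. Chow replicate 2 lay below all HFCF libraries while the other two lay above them. The change of -0.44 ± 0.24 did not pass (edgeR adjusted p = 0.214), with an interval of -0.95 to 0.07. At 1 month it had 2.91, 4.34 and 4.50 CPM in HFCF libraries and 3.89, 3.99 and 4.60 CPM in chow libraries (-0.09 ± 0.24, edgeR adjusted p = 0.895).

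**Figure D2:**
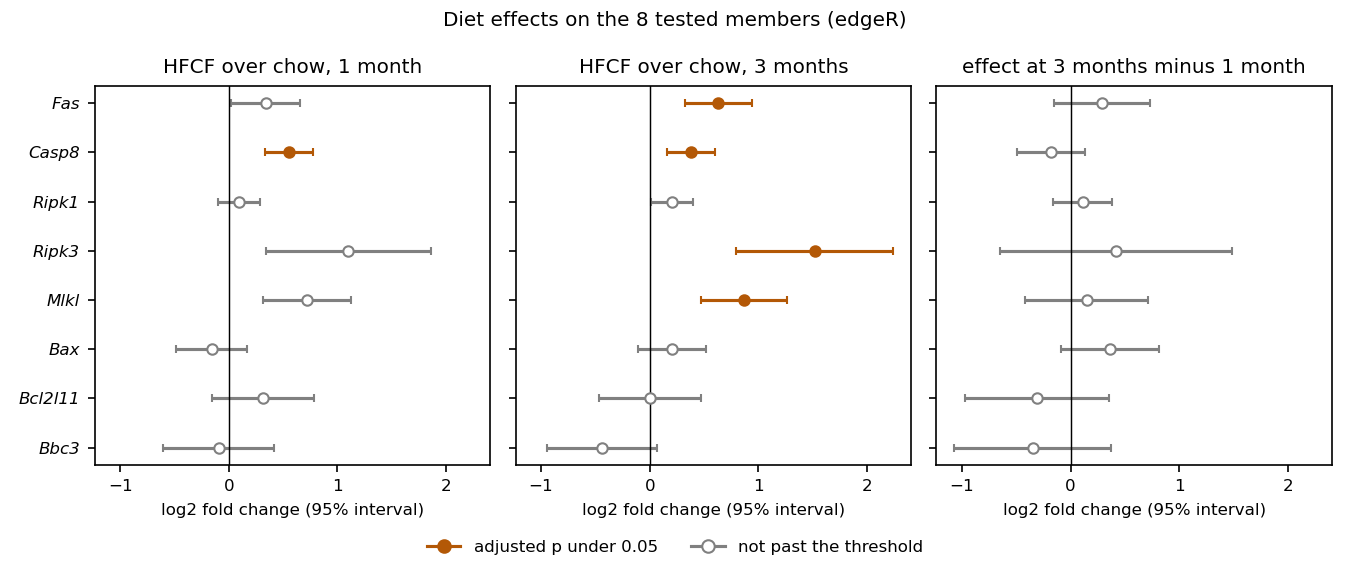
Log2 fold change of HFCF over chow (horizontal axes, points with 95% intervals) of the 8 members tested at 1 month and 3 months, and the difference between the months, with filled points where the edgeR adjusted p was under 0.05. Casp8 is filled at 1 month, Ripk3, Mlkl, Casp8 and Fas at 3 months, and none in the difference, where each interval includes 0.

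Whether the diet effect differed between the months was tested as the effect at 3 months minus that at 1 month. None of the 8 members passed with edgeR, with the DESeq2 Wald test or with limma-voom, and none had an unadjusted edgeR p under 0.05, while 0.0407% of all genes passed, 0.0204% higher and 0.0204% lower. The difference was 0.42 ± 0.50 for Ripk3, with an interval of -0.65 to 1.48, and 0.15 ± 0.26 for Mlkl, with an interval of -0.42 to 0.72. For Casp8 it was -0.18 ± 0.15 (interval -0.49 to 0.14) and for Fas 0.29 ± 0.21 (interval -0.15 to 0.73). The intervals leave room for sizeable differences, so a call at 1 of the months alone does not separate them.

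Between the months within the chow diet no member passed with edgeR, the DESeq2 Wald test or limma-voom, and none had an unadjusted edgeR p under 0.05, while 0.00679% of all genes passed. Bax alone of the 8 was higher in all 3 month chow libraries than in all 1 month ones, against 7.88% of all genes higher and 7.67% lower in that way. Within HFCF, 1 of the 8 members, Bax, was higher at 3 months than at 1 month and none was lower, while 16.2% of all genes passed in either direction, 9.25% higher and 6.95% lower. Bax and Fas were the 2 members whose 3 month HFCF libraries all lay above the 1 month ones, against 17.2% of all genes higher and 14.9% lower in that way. Bax averaged 13.0 ± 2.4 CPM in HFCF at 3 months and 8.66 ± 1.28 CPM in HFCF at 1 month (SD, n = 3 each), a change of 0.59 ± 0.15 (edgeR adjusted p = 0.0187). The chow groups ran the same way without passing, with 11.3 ± 0.7 CPM at 3 months and 9.69 ± 0.69 CPM at 1 month (0.22 ± 0.15, edgeR adjusted p = 0.749), and did not overlap. The Bax call was lost without HFCF at 1 month replicate 2 (0.51, adjusted p = 0.0566) or replicate 3 (0.54, 0.0684). It was also lost without HFCF at 3 months replicate 1 (0.56, adjusted p = 0.0689) or replicate 2 (0.48, 0.0962), and when only these 2 groups were fitted (0.57, 0.0679). Fas, at 0.44 ± 0.14 between the HFCF groups, lay just outside the threshold (edgeR adjusted p = 0.0502) and passed at 0.0351 without HFCF at 1 month replicate 1.

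The authors' deposited table gives its own log2 ratios of chow over HFCF, the opposite direction to the changes above, with an adjusted p stored as a score. In the authors' deposited table the ratios at 3 months are -1.12 for Ripk3, -0.78 for Mlkl, -0.36 for Casp8 and -0.58 for Fas, with adjusted p of 0.00148, 0.000928, 0.0195 and 0.00254 in that order. In the authors' deposited table at 1 month, Casp8 has an adjusted p of 0.000743 and Mlkl of 0.0304, and the other 7 members have values of 0.12 and above.

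Bulk liver RNA mixes cell types, and fewer cells of a type cannot be told apart from less RNA per cell. At 3 months marker sums of macrophages were higher in HFCF than in chow, as were Ripk3, Mlkl, Casp8 and Fas. The summed level of 8 resident Kupffer cell markers was 686, 608 and 524 CPM in HFCF at 3 months, against 471, 332 and 332 CPM in chow at 3 months. At 1 month it was 741, 339 and 618 CPM in HFCF, against 385, 352 and 391 CPM in chow. HFCF replicate 2 at 1 month was thus low in Kupffer markers as well as in Ripk3 and Mlkl. Of these 8 markers 2 rose and 1 fell at 3 months (median 0.467), while 11.5% of all genes were higher and 7.5% lower. The one that fell was Cd163 (11.9 ± 2.5 CPM in HFCF, 39.8 ± 5.8 CPM in chow, edgeR adjusted p = 0.000697). Marco and Timd4 also had lower means in HFCF at 3 months, without passing. Cd5l, Clec4f and Csf1r made up most of the sum, which thus does not speak for each marker. Most of the difference in the sum at 3 months was Cd5l, at 247 ± 52 CPM in HFCF and 94.7 ± 23.4 CPM in chow (edgeR adjusted p = 0.0219). Clec4f and Csf1r did not pass at 3 months (edgeR adjusted p = 0.127 and 0.171). None of the 8 passed at 1 month with edgeR (median 0.515), where 3 had an unadjusted p under 0.05 and DESeq2 called 2, Clec4f and Vsig4, and limma-voom 0.

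The summed level of 10 recruited macrophage markers was 202 to 542 CPM in HFCF at 3 months, against 92.4 to 123 CPM in chow, and 9 of the 10 rose (median 3.15). HFCF replicate 3 held the lowest of these sums, 202 CPM, and its Ripk3 level of 2.83 CPM was the second highest of the 12 libraries. Of the 9 markers that rose, Ly6c2 had 11 to 25 counts a library in HFCF at 3 months and at most 6 in any other group. It passed the filter on low counts only through the group where it was high. At 1 month the recruited macrophage sums were 107 to 156 CPM in HFCF and 93.4 to 118 CPM in chow, with none of the 10 markers passing with edgeR, 1 at an unadjusted p under 0.05, and 0 with DESeq2 or limma-voom. Hepatocyte markers summed to 59853 to 78282 CPM in HFCF at 3 months, against 97010 to 97438 CPM in chow, and 6 of 10 fell (median -0.56). Most of that sum was Alb, at 39101 ± 5051 CPM in HFCF and 53198 ± 789 CPM in chow, which did not pass (edgeR adjusted p = 0.16). The means of Ttr and Cyp2e1 were not lower in HFCF, so the sum does not speak for each marker. At 1 month the hepatocyte sums were 81320 to 102842 CPM in HFCF and 99055 to 115503 CPM in chow, and none of the 10 passed with edgeR, 1 at an unadjusted p under 0.05, 1 with DESeq2 (Hnf4a) and 0 with limma-voom.

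Among other cell types at 3 months, neutrophils had 8 markers chosen, 5 listed and 3 tested, and all 3 rose. The 5 listed had a low summed level of 4.28 to 7.64 CPM in HFCF against 2.10 to 3.77 CPM in chow. S100a8 had 11 to 27 counts a library in HFCF at 3 months and at most 11 in any other group. It passed the filter on low counts only through the group where it was high, so the 3 of 3 was partly set by the filter. Stellate cell markers had 3 of 8 higher (586 to 1120 CPM in HFCF, 409 to 584 CPM in chow), B cell markers 1 of 4 (5.86 to 35.9 CPM in HFCF, 4.42 to 12.1 CPM in chow) and cholangiocyte markers 1 of 5 (61.0 to 223 CPM in HFCF, 31.4 to 44.3 CPM in chow). The B cell sum of 35.9 CPM was HFCF replicate 1, where Ighm had 31.7 CPM, and the other HFCF libraries had 10.3 and 5.86 CPM. The B cell gene called was Cd79b (1.76 ± 0.41 CPM in HFCF, 0.59 ± 0.40 CPM in chow). The cholangiocyte gene called was Spp1 (159 ± 89 CPM in HFCF, 31.1 ± 5.8 CPM in chow), which the recruited macrophage list also holds and which makes up most of the cholangiocyte sum. Without it the other 5 summed to 4.76 to 10.2 CPM in HFCF and 5.40 to 7.27 CPM in chow. Sinusoidal endothelial markers had 0 of 7 called with edgeR, DESeq2 and limma-voom and 1 at an unadjusted p under 0.05. T and NK cell markers had 0 of 2 by each of these. No listed marker was at 0 in all libraries of a group. The part of any of these cell types in the changes of the members was not tested.

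Set against the Kupffer marker sum, the members differed from one another. Per 1000 CPM of Kupffer markers, Ripk3 had 3.16, 4.50 and 5.40 CPM in the HFCF libraries at 3 months, from low to high, against 2.26, 2.29 and 2.56 CPM in the chow libraries. At 1 month the same ratio was 2.76, 2.96 and 3.47 in HFCF and 1.81, 2.12 and 2.67 in chow. The diets did not overlap in this ratio at either month, but at 1 month the gap was narrow, 2.76 against 2.67. It rests on Ripk3 counts of 15 to 46 a library in HFCF and 10 to 16 in chow. For Mlkl the ratio was 12.8, 12.9 and 13.6 in HFCF at 3 months, against 9.50, 12.6 and 13.2 in chow, and these overlapped. For Casp8 it was 51.8 to 75.5 in HFCF and 61.1 to 91.3 in chow, and for Fas 31.8 to 49.4 in HFCF and 29.7 to 55.0 in chow, overlapping in both. Per 1000 CPM of recruited macrophage markers the order at 3 months was mostly the other way. Ripk3 had 3.55, 5.74 and 14 CPM in HFCF, against 8.11, 8.74 and 9.08 CPM in chow, and overlapped, with 2 of the 3 HFCF libraries below all chow libraries. Mlkl had 15.2 to 33.5 in HFCF against 36.3 to 46.8 in chow, and Casp8 66 to 196 in HFCF against 233 to 328 in chow, both lower in HFCF without overlap. Fas had 40 to 128 in HFCF and 113 to 198 in chow, which overlapped. Most of the recruited macrophage sum was Spp1, which the cholangiocyte list also holds, and Lyz2. In HFCF at 3 months these had 159 ± 89 and 164 ± 50 CPM, against 31.1 ± 5.8 and 52.0 ± 9.3 CPM in chow. The 2 macrophage sums thus give different orders at 3 months. At 1 month, per 1000 CPM of recruited macrophage markers, Ripk3 had 9.4 to 19.4 in HFCF and 6.89 to 10.1 in chow. Mlkl had 45.6 to 60.6 and 30.3 to 46.2, and the diets overlapped for all 4 genes. Per 1000 CPM of hepatocyte markers all 4 were higher in HFCF at 3 months without overlap, Ripk3 at 0.0321 to 0.0507 against 0.0077 to 0.0111. None of these ratios carries a test.

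**Figure D3:**
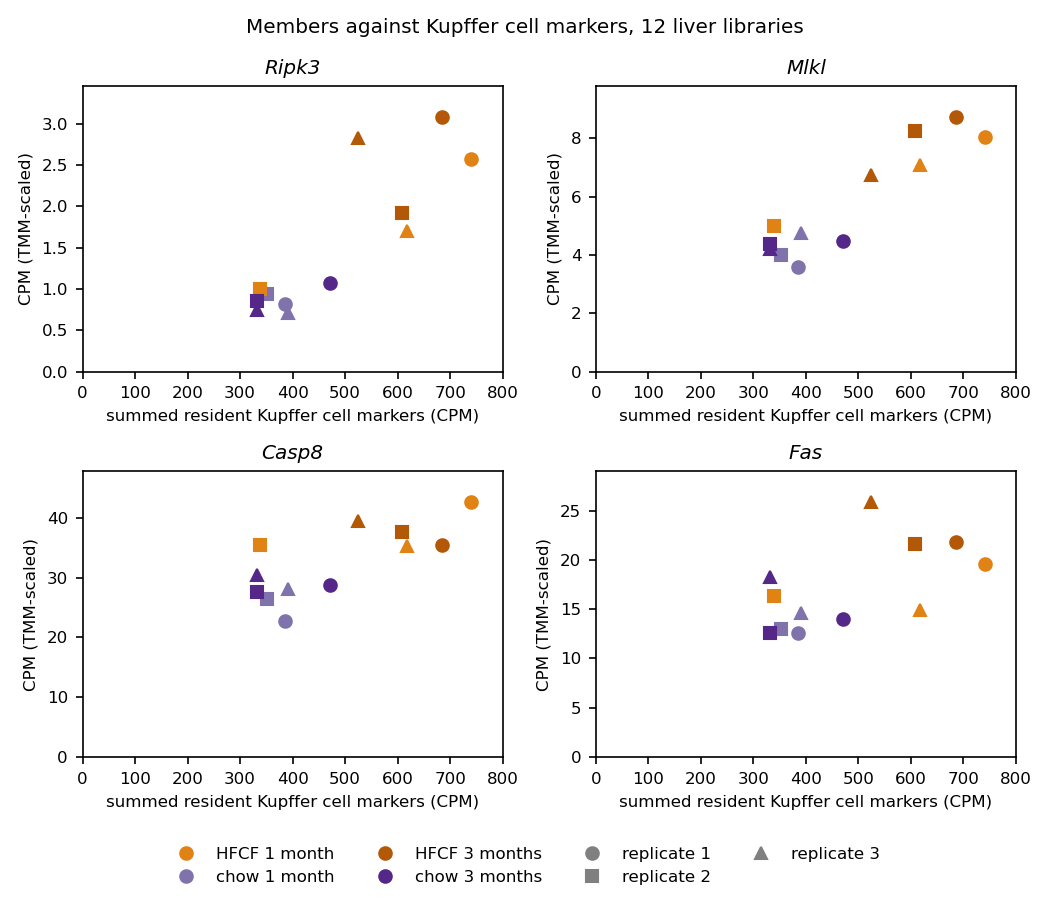
Level of Ripk3, Mlkl, Casp8 and Fas in CPM (vertical axes) against the summed level of 8 resident Kupffer cell markers in CPM (horizontal axes), 1 point a library, coloured by group with symbols for replicates. Ripk3 and Mlkl are highest in the 5 HFCF libraries with Kupffer sums of 524 CPM or more, and HFCF replicate 2 at 1 month, at 339 CPM, sits beside the chow libraries.

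Over the 12 libraries, which include the group differences above, log2 levels of Ripk3 and Mlkl had a Pearson r of 0.909 with each other. With the Kupffer marker sum r was 0.887 for Ripk3, 0.901 for Mlkl, 0.71 for Casp8 and 0.601 for Fas, and with the hepatocyte sum it was -0.838, -0.868, -0.697 and -0.771 in the same order. With the recruited macrophage sum r was 0.744 for Ripk3, 0.792 for Mlkl, 0.514 for Casp8 and 0.679 for Fas, and with the neutrophil sum 0.811, 0.86, 0.677 and 0.653. Bax had r of 0.333 with the Kupffer, 0.677 with the recruited macrophage, 0.729 with the stellate and -0.675 with the hepatocyte sum. With the Kupffer and recruited macrophage sums r was 0.0693 and 0.0527 for Bcl2l11, and -0.405 and -0.425 for Bbc3. Among 11567 genes with a mean of at least 1 CPM, those most like Ripk3 were Casp1 (r = 0.951), the inflammatory caspase, and Cd300ld (0.943). Those most like Mlkl were Lair1 (0.971), an inhibitory receptor of leukocytes, and Msr1 (0.967), a macrophage scavenger receptor. Casp8 was most like Tdp2 (0.973), a DNA repair enzyme, and Glyat (0.962), a glycine conjugation enzyme of hepatocytes.

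Fas was most like Fahd1 (0.948) and Ftsjd2 (0.947), and Ripk1 most like Slc16a9 (0.868) and Stk17b (0.867). Bax was most like Cdc42se2 (0.956) and Rpgrip1l (0.926). Bcl2l11 was most like the MAX-binding repressor Mnt (0.816) and the growth regulator Myc (0.776), and Bbc3 most like the stress regulator Atf4 (0.835) and Tmem39b (0.833). These correlations are descriptions over libraries of 4 groups and carry no test.

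The other genes of these pathways were counted by role. Over all genes 11.5% were higher and 7.5% lower at 3 months, and 1.04% and 1.01% at 1 month. No list was tested against these shares. The receptor list holds death receptors, other TNF family receptors and ligands. Of its 9 genes tested 5 rose and none fell at 3 months, with a median of 0.559. Beside Fas these were the cytokine gene Tnf (1.41 ± 0.63 CPM in HFCF, 0.17 ± 0.16 CPM in chow, 2.88 ± 0.62, edgeR adjusted p = 0.00688), the lymphotoxin receptor Ltbr (0.39 ± 0.10, 0.0131), the TWEAK receptor Tnfrsf12a (1.46 ± 0.39, 0.0247) and death receptor 6, Tnfrsf21 (0.56 ± 0.17, 0.0364). At 1 month 1 of the 9 rose, the TRAIL gene Tnfsf10 (9.11 ± 2.26 CPM in HFCF, 5.36 ± 0.56 CPM in chow, edgeR adjusted p = 0.0491). Tnfrsf12a had 11.6, 21.95 and 5.66 CPM in HFCF and 4.53, 5.43 and 4.42 CPM in chow, and its change was 0.86 without HFCF replicate 2. The change of Tnf was 3.68 without chow replicate 1. Tnf had 13 to 45 counts a library in HFCF at 3 months and at most 7 in any other group. It passed the filter on low counts only through the group where it was high, so its place among the 5 was partly set by the filter. The TNF receptor Tnfrsf1a did not pass at 3 months (0.14 ± 0.14) or at 1 month (0.05 ± 0.14), and Tnf did not pass at 1 month (edgeR adjusted p = 0.244).

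Among 18 adaptors, kinases and inhibitors of the receptor complexes 3 rose and 2 fell at 3 months, with a median of 0.0061. Over all genes 11.5% were higher and 7.5% lower. Beside Casp8, the ubiquitin-editing inhibitor Tnfaip3 (1.36 ± 0.23, edgeR adjusted p = 0.00201) and the adaptor Traf1 (1.76 ± 0.37, 0.00581) rose. Traf1 had 16 to 44 counts a library in HFCF at 3 months and at most 10 in any other group. Like Tnf, it passed the filter only through the group where it was high. The NF-kappaB scaffold Ikbkg (-0.52 ± 0.11, edgeR adjusted p = 0.00544) and the deubiquitinase Cyld (-0.26 ± 0.09, 0.046) fell. At 1 month Casp8 rose and the kinase adaptor Tab2 fell (-0.48 ± 0.11, edgeR adjusted p = 0.0337). The caspase-8 inhibitor Cflar had 98.7 ± 10.4 CPM in HFCF and 105 ± 7 CPM in chow at 3 months, a change of -0.09 ± 0.09, and the adaptor Fadd 0.17 ± 0.17, neither past the threshold.

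Among the 7 necroptosis genes 2 rose and 1 fell at 3 months, while 11.5% of all genes were higher and 7.5% lower. The 2 were Ripk3 and Mlkl, and the one that fell was Ticam1, which encodes the Toll-like receptor adaptor TRIF, with 6.05 ± 0.28 CPM in HFCF and 8.74 ± 1.25 CPM in chow (edgeR adjusted p = 0.0361). None of the 7 passed with edgeR or limma-voom at 1 month, where 3 had an unadjusted p under 0.05 and DESeq2 called 2, Mlkl and Zbp1.

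In the BCL2 family, 2 of 10 pro-apoptotic genes and 3 of 5 pro-survival genes rose at 3 months, and none fell. Over all genes 11.5% were higher and 7.5% lower. The pro-apoptotic ones were Bid (22.6 ± 0.7 CPM in HFCF, 15.6 ± 1.6 CPM in chow, edgeR adjusted p = 0.0064), which Casp8 cleaves to link the receptor route to mitochondria, and the Mcl1 antagonist Pmaip1 (1.22 ± 0.29, 0.0103). The pro-survival ones were Mcl1 (157 ± 11 CPM in HFCF, 102 ± 11 CPM in chow, edgeR adjusted p = 0.00161), Bcl2 (0.87 ± 0.28, 0.0449) and Bcl2a1b (2.21 ± 0.56, 0.0157). Bcl2a1b has near-identical copies, so its counts are uncertain. It had 15 to 67 counts a library in HFCF at 3 months and 2 to 17 in chow at 3 months. It too passed the filter only through the group where it was high. At 1 month Bid rose (0.48 ± 0.12, edgeR adjusted p = 0.0497) and 0 of 5 pro-survival genes passed with edgeR, DESeq2 or limma-voom, with 2 at an unadjusted p under 0.05. Bcl2l1 (0.27 ± 0.19 at 3 months, -0.49 ± 0.19 at 1 month) and Bak1 (0.26 ± 0.13 and 0.19 ± 0.13) did not pass. Without both libraries that stood apart Bcl2l1 passed at 3 months (edgeR adjusted p = 0.0205). Bid at 1 month then lost its call (edgeR adjusted p = 0.159).

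Downstream of mitochondria, 1 of 16 genes of the apoptosome and executioner caspases rose at 3 months, the scaffold Apaf1 (0.52 ± 0.16, edgeR adjusted p = 0.0364), and 1 fell, the mitochondrial nuclease Endog (-0.59 ± 0.10, 0.00152). The shares over all genes were 11.5% higher and 7.5% lower. None of the 16 passed at 1 month with edgeR, DESeq2 or limma-voom, with 2 at an unadjusted p under 0.05. Among 15 p53 genes 3 rose at 3 months, namely Fas, Pmaip1 and Phlda3 (1.49 ± 0.44, edgeR adjusted p = 0.0304), and none fell.

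The cell cycle inhibitor Cdkn1a, a standard p53 target, fell at 1 month, with 0.951, 1.14 and 1.02 CPM in HFCF libraries against 31.8, 9.09 and 16.9 CPM in chow libraries (-4.21 ± 0.78, edgeR adjusted p = 0.0331). Chow replicate 1, which stood apart, was the highest. Perp rose at 1 month (0.50 ± 0.12, edgeR adjusted p = 0.0436). At 3 months Cdkn1a did not pass (-0.77 ± 0.68), nor did Trp53 at 3 months (-0.20 ± 0.17) or 1 month (-0.59 ± 0.17, edgeR adjusted p = 0.105). Among 8 genes of the CHOP/ATF4 stress arm, the glutathione-degrading enzyme gene Chac1 (1.64 ± 0.44, edgeR adjusted p = 0.0209) and Atf3 (2.91 ± 0.81, 0.0359) rose and the asparagine synthetase gene Asns fell (-3.07 ± 0.80, 0.0295) at 3 months. Over all genes 11.5% were higher and 7.5% lower at 3 months. Asns lost its call without both libraries that stood apart (edgeR adjusted p = 0.084). None of the 8 passed at 1 month with edgeR or limma-voom, with 2 at an unadjusted p under 0.05 and 1 with DESeq2 (Chac1), and Ddit3, which encodes CHOP, was at -0.12 ± 0.21 and -0.39 ± 0.22 at 3 months and 1 month.

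**Figure D4:**
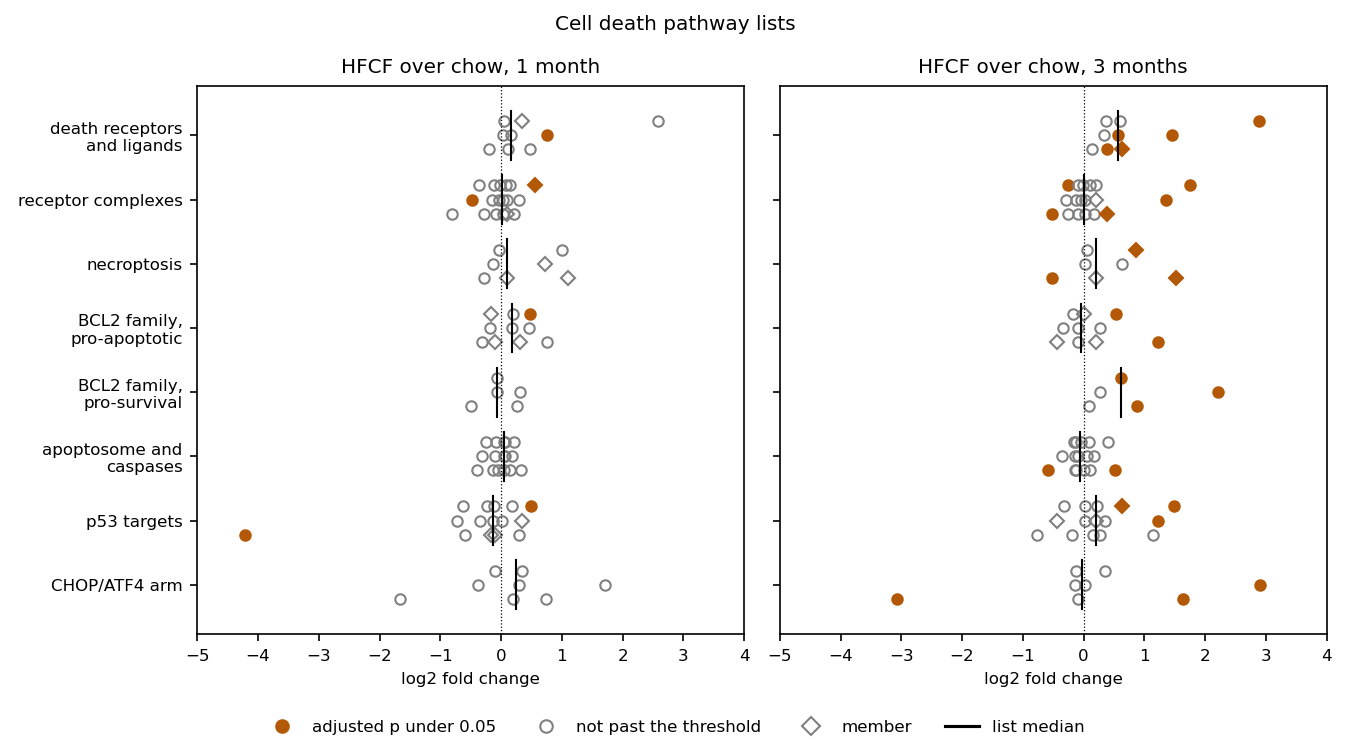
Log2 fold change of HFCF over chow (horizontal axes) for every tested gene of 8 cell death lists (rows) at 1 month and 3 months, with filled symbols for edgeR adjusted p under 0.05, diamonds for members and vertical lines for list medians. Filled symbols are more frequent at 3 months, as over all genes (19% against 2.04%), and the filled point far left at 1 month is Cdkn1a at -4.21.

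Between the HFCF groups, 3 months over 1 month, 9.25% of all genes were higher and 6.95% lower, and no list was tested against these shares. Of 9 genes of the receptor list 3 were higher, Tnf (2.26 ± 0.58), Tnfrsf12a (1.80 ± 0.40) and Tnfrsf21 (0.66 ± 0.17). Of 18 genes of the receptor complexes 2 were higher, Tnfaip3 (1.80 ± 0.24) and Traf1 (1.83 ± 0.37). Of 10 pro-apoptotic BCL2 genes Bax and Pmaip1 (1.20 ± 0.29) were higher and the BH3-only gene Bmf was lower (-0.93 ± 0.24). Of 5 pro-survival genes Mcl1 (0.44 ± 0.10) and Bcl2a1b (2.58 ± 0.58) were higher. Of 16 apoptosome and caspase genes Apaf1 (0.69 ± 0.16) was higher, and Endog (-0.50 ± 0.10) and the caspase inhibitor Xiap (-0.38 ± 0.12) were lower. Of 15 p53 genes 4 were higher, Bax, Pmaip1, Aen (0.85 ± 0.21) and Phlda3 (1.81 ± 0.45). None of 7 necroptosis or 8 stress arm genes passed with edgeR. Between the chow groups no gene of these 8 lists passed with edgeR, DESeq2 or limma-voom. For the HFCF groups the edgeR adjusted p lay between 0.000907 for Tnfaip3 and 0.0429 for Xiap. Tnf, Traf1 and Bcl2a1b passed the filter only through HFCF at 3 months, as given above.

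Many of these calls lay near the threshold and were lost when a group was reduced to 2 libraries, mostly with changes of similar size. In the losses at 3 months the log2 change was 58.8% to 123% of that with all libraries (median 92.3%), at 1 month 81.8% to 119% (median 97.5%) and between the HFCF groups 76.8% to 105% (median 89.3%), and none turned sign. Members included, 9 of the 24 pathway genes called at 3 months kept the call without each library in turn, namely Ripk3, Mlkl, Tnf, Tnfaip3, Traf1, Ikbkg, Bid, Mcl1 and Endog. Beside Casp8 and Fas, whose losses are given above, Apaf1, Bcl2, Cyld and Tnfrsf12a lost it without chow replicate 1 (edgeR adjusted p of 0.0726 to 0.112). Apaf1, Asns, Atf3, Bcl2, Bcl2a1b, Chac1, Cyld, Ltbr, Phlda3, Ticam1, Tnfrsf12a and Tnfrsf21 lost it without chow replicate 2 (0.0526 to 0.161), without chow replicate 3 (0.0548 to 0.134) and without HFCF replicate 2 (0.0547 to 0.187). Without HFCF replicate 1 the same 12 genes with Pmaip1 in place of Ltbr lost it (0.0517 to 0.144), and without HFCF replicate 3 Asns, Cyld and Ticam1 did (0.0541 to 0.0658). The folds that moved by over 1.5 times were those of Tnfrsf12a and Tnf, given above, of Asns (-3.77 without HFCF replicate 2), and of Atf3 (4.59), Bcl2a1b (3.08) and Chac1 (2.35) without chow replicate 1. Cyld lost its call without any 1 of the 6 libraries, at changes of -0.22 to -0.30.

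Of the 6 pathway genes called at 1 month none kept the call without each library. Beside Casp8, whose losses are given above, Bid, Cdkn1a, Perp, Tab2 and Tnfsf10 lost it without replicate 1 or 3 of chow or without replicate 1 of HFCF (edgeR adjusted p of 0.0725 to 0.191). Without chow replicate 2 Bid, Tab2 and Tnfsf10 lost it (0.0697 to 0.119), without HFCF replicate 2 Bid, Cdkn1a, Perp and Tnfsf10 (0.0819 to 0.129), and without HFCF replicate 3 Cdkn1a, Perp and Tab2 (0.0778 to 0.0851). Between the HFCF groups 3 of 15 kept it, Tnfaip3, Traf1 and Endog. There, beside Bax, whose losses are given above, Phlda3, Tnfrsf12a, Tnfrsf21 and Xiap lost it without the 1 month replicate 1 (0.0515 to 0.121), and Aen, Bmf, Mcl1, Phlda3, Pmaip1, Tnf and Xiap without the 1 month replicate 3 (0.0534 to 0.137). Aen, Apaf1, Bcl2a1b, Phlda3, Pmaip1, Tnf, Tnfrsf21 and Xiap lost it without the 3 months replicate 1 (0.0512 to 0.146). Aen, Apaf1, Bcl2a1b, Bmf, Mcl1, Phlda3, Tnf, Tnfrsf21 and Xiap lost it without the 3 months replicate 2 (0.0521 to 0.187), where the change of Tnfrsf12a was 1.21.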

How the data were processed

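Livers were flash frozen and total RNA was made into stranded TruSeq libraries after Ribo-Zero Gold depletion, per the labels' protocols. The deposited table holds whole-number read counts per gene, and the genome build is mm10, per the submitters' processing notes. How reads were aligned, counted and assigned to strands is not given in the sources. The authors also deposited FPKM, used here only as an alternative to CPM per kb. The authors' log2 ratios (first-named over second-named group) and their adjusted p, deposited as a score on a log10 scale, are quoted only where named. Total BPs, the gene bases per the file headers, gave levels per kb, and 1 was added to the starts.

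Counts were fitted in R 4.3.3 with edgeR 4.0.16 (filterByExpr, TMM factors of 0.921 to 1.14, robust quasi-likelihood fitting, 1 mean for each of the 4 groups). The filter removed 1310 genes. Benjamini-Hochberg adjustment ran over all 14725 genes tested, and the SE was taken as |log2 change| over the root of the F statistic. The fit was tested on simulated data. P-values measure the spread between the biological replicates named in the labels.

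The 9 members, the pathway and marker lists (149 of 159 genes listed) and the tests were chosen with earlier results of these data known. By rule, the text names all members, up to 4 called non-members of each list by smallest p, 12 genes whatever their p (1 is not reported here), and the 2 genes nearest to each member by correlation. Clec4f, Vsig4, Cd163, Marco, Timd4, Cd5l, Csf1r, Lyz2, Hnf4a and Zbp1 were named after their values were seen. So were S100a8, Ly6c2, Alb, Ttr, Cyp2e1, Ighm and Cd79b. Alternatives used DESeq2 1.42.0, limma 3.58.1, other scalings and filters, a replicate block, only the groups compared, and each library left out. The alternative without the 2 outlying libraries was added after seeing the data. Replicates differed beyond sampling noise (chi-square per gene of 13 to 65.4). Figures were drawn in Python 3.11.15 with pandas 2.3.3 and matplotlib 3.10.9.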

Additional observations from a re-analysis of the deposited data

Results flagged for a closer look

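Tnfaip3, an inhibitor of TNF and necroptosis signalling, differed in its diet effect between the months. It had 14.6, 14.4 and 7.66 CPM in HFCF and 4.80, 5.95 and 3.598 CPM in chow at 3 months, and 3.91, 3.74 and 2.93 CPM in HFCF and 6.34, 6.22 and 6.09 CPM in chow at 1 month. Every HFCF library was above chow at 3 months and below it at 1 month. The effect at 3 months minus that at 1 month was 2.17 ± 0.34 (edgeR adjusted p = 0.0464), and the 1 month effect alone did not pass (-0.81 ± 0.25, edgeR adjusted p = 0.117). The difference stayed between 2.01 and 2.40 without each library in turn, with adjusted p of 0.000692 to 0.148. The call was lost without any 1 of 10 of the 12 libraries, the exceptions being HFCF at 1 month replicate 2 (0.0306) and HFCF at 3 months replicate 3 (0.000692). It was 0.0564 with total counts alone, 0.0521 when genes averaging under 1 CPM were dropped and 0.0701 with limma-voom.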

How the results depend on the processing

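At 3 months Ripk3, Mlkl, Casp8 and Fas kept direction and call under each of the 9 alternatives of scaling, filter, test, block, groups and libraries that stood apart, with log2 changes of 1.45 to 1.65, 0.86 to 1.00, 0.34 to 0.51 and 0.54 to 0.76. At 1 month the genes called numbered 641 with the DESeq2 Wald test, 147 with only the groups compared and 149 without both libraries that stood apart, against 301, and the members called 2, 0 and 0, against 1. For the difference of the effects the genes called were 0 with total counts alone, 367 with DESeq2, 3 with limma-voom and 635 without both libraries, against 6. For chow over time they were 2 with DESeq2 size factors, total counts, no filter and without both libraries, 69 with DESeq2 and 17 with only the groups compared, against 1. For HFCF over time they were 3907 with total counts, 1298 with only the groups and 3808 without both libraries, against 2385, and the members called 2 with total counts, with at least 1 CPM and with limma-voom, and 0 with only the groups, against 1. Total counts alone moved the median of all genes to 0.127 at 3 months and 0.22 for HFCF over time, and the share of calls that were higher to 81.4% and 87.6%, against 60.6% and 57.1%.

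Changes near 0 turned sign. Bcl2l11 at 3 months was -0.0039 with DESeq2 size factors, -0.00556 with no filter, -0.00502 with the DESeq2 test and -0.00463 with only the groups. Bcl2l11 in chow over time was 0.0856, Ripk1 in HFCF over time 0.20 and Casp8 0.19 with total counts, and Ripk1 0.0054 with at least 1 CPM. Replicate numbers do not pair the samples (r of same-numbered libraries -0.173 to 0.19, 5 of 18 best matched by their own number). The replicate block gave 48 genes for the difference of the effects and -0.00618 for Bcl2l11 at 3 months, and changed no other count by over 1.5 times.

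Without 1 library the genes called ranged from 65 to 289 at 1 month, 1255 to 3631 at 3 months, 0 to 878 for the difference, 1 to 6 for chow and 732 to 3562 for HFCF over time. Members called ranged from 0 to 3, 2 to 4, 0 to 0, 0 to 0 and 0 to 2 in that order. Signs turned for Bbc3 at 1 month (-0.21 to 0.0898), Bcl2l11 at 3 months (-0.14 to 0.19) and Mlkl in the difference (-0.0225 to 0.30). In chow over time they turned for Ripk3 (-0.0414 to 0.24), Mlkl (-0.00039 to 0.20), Fas (-0.017 to 0.26), Bcl2l11 (-0.21 to 0.11) and Bbc3 (-0.11 to 0.29), and in HFCF over time for Ripk1 (-0.0466 to 0.0304) and Casp8 (-0.059 to 0.0825). The cause of these shifts was not tested. Depth limits Ripk3 and Tnfrsf10b most.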
